A study of Saccharomyces cerevisiae with 164 samples.

Results

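Budding yeast strains with arginine in place of lysine 14 (K14R) on 1 or both plasmid copies of histone H3 were compared with strains carrying glutamine there (K14Q), in 12 full-length RNA-seq libraries, 6 for each substitution, chosen by their labels. They are 12 of the 98 full-length libraries and of the 164 libraries of the series. Each substitution was present in 3 forms with 2 libraries each. In the H3X form it sat on the H3 carried by a TRP1-marked centromeric (CEN) plasmid, in the H3Y form on the H3 of a LEU2-marked centromeric plasmid, and in the symmetric form on both. The H3X and H3Y strains thus kept lysine 14 on their other H3 copy. The K14R libraries came from batches 2 and 7 (3 each) and the K14Q libraries from batches 5 and 7 (3 each), so batch 7 alone held both substitutions. The 5 pseudo-wild-type libraries, with lysine 14 intact on both plasmids, came from batches 2, 3, 4 and 8.

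All strains were MATa, with both chromosomal H3-H4 gene pairs deleted and with mutant alleles of LEU2, URA3 (ura3-62) and TRP1 and the his3+ allele. All of them, pseudo-wild-type included, carried L127A and L131V in the H3 of the TRP1 plasmid, and L110I, A111W and L131I in the H3 of the LEU2 plasmid. By the labels these changes are thus shared by the K14R, K14Q and pseudo-wild-type strains. The labels give HHF1 as the H4 gene on the LEU2 plasmid of the substituted strains and HHF2 on that of the pseudo-wild-type. Cultures in YEPD, a rich medium with glucose, were taken in mid-log growth. The labels do not say whether the 2 libraries of a strain came from separate cultures, so p-values measure the spread between libraries, which may be technical.

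Lysine 14 lies in the N-terminal tail of H3, the part that protrudes from the nucleosome. It is acetylated mainly by Gcn5, the catalytic subunit of SAGA, and by Sas3, that of NuA3, and deacetylated by Rpd3 and Hda1 complexes. Acetylated lysine 14 is bound by bromodomains, such as those of Rsc4 in the RSC remodeller. Arginine keeps the positive charge and cannot be acetylated. Glutamine removes the charge and is widely used as an imperfect stand-in for acetyl-lysine. The first 24 codons of HHT2, an H3 gene, are shown to place the substituted codon, in the R64 genome of RefSeq, chrXIV:575979-576050, minus strand, with the lysine 14 codon in capitals (residues are counted without the initiator methionine).
HHT2 codons 1 to 24: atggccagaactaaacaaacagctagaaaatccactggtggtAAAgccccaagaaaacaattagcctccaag
The gene counts do not read this codon, so the substitution itself was not checked here.

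Library totals were 2882924 to 13308589 assigned read pairs in K14R and 1409228 to 10337615 in K14Q. Levels below are CPM, which are counts scaled to library size with TMM factors. The symmetric K14R library of batch 7 stood apart from the other 11. Its log2 CPM increased by 1.85 per 10 percentage points of gene GC content, against -0.02 to 0.31 in the other K14R libraries and -0.60 to 0.32 in the K14Q libraries, its TMM factor was 0.536, and its correlations of log2 CPM with the other 11 libraries over the 6376 genes tested were 0.635 to 0.883. Both H3Y libraries of batch 7 had steep trends with gene length, with slopes of -0.52 (K14R) and -0.39 (K14Q) log2 units per doubling. The main counts are given with and without the symmetric K14R library of batch 7. The 6 a-cell marker genes were detected in all 12 libraries, at a sum of 1577 to 2074 CPM over the 9 listed a-cell mating genes in K14R and 1410 to 2322 CPM in K14Q. Of 6 alpha-cell markers, HMLALPHA1 was at 0 in all 12 libraries and MF(ALPHA)1 was at 1.64 to 6.62 CPM in K14R and 0.71 to 4.75 CPM in K14Q, whereas SAG1, the alpha-agglutinin gene, was at 128 to 153 CPM in K14R and 123 to 156 CPM in K14Q. STE3, the a-factor receptor gene, was at 7.01 to 17.6 CPM in K14R and 10.9 to 23.9 CPM in K14Q, and MF(ALPHA)2 and HMLALPHA2 were at most 7.05 CPM in the 12 libraries.

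Over the 3 forms, only 5 of 6376 genes tested differed between K14R and K14Q, 0.0784% of them, at an adjusted p under 0.05 in edgeR's quasi-likelihood test with Benjamini-Hochberg adjustment. 1 gene was higher (0.0157%) and 4 were lower (0.0627%) in K14R. The 4 lower features were short reading frames within the ribosomal DNA on chromosome XII, and the higher one was YFL065C at the left end of chromosome VI. No gene of the metabolic, stress, chromatin or translation lists passed. At an unadjusted p under 0.05 there were 884 genes, and DESeq2 called 36 genes (7 higher, 29 lower). With the replicate number as a block in a fit of the 12 libraries, no gene passed. Single libraries moved the count. It was 546 without the symmetric K14R library of batch 2, 33 without the H3Y K14Q library of batch 7, 3 without either H3X K14R library, and 0 without the H3X or the symmetric K14Q library of batch 7.

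The intervals show how large a difference could have been present. For 4622 genes (72.5%) the 95% interval of the K14R to K14Q difference lay wholly within 2-fold in either direction, and for 2043 genes (32.0%) wholly within 1.5-fold. The median absolute difference was 0.26 log2 units with a median standard error of 0.23. Within batch 7 alone, 3 K14R against 3 K14Q libraries gave 4 lower genes (0.0627%) and no higher ones, with 104 genes at an unadjusted p under 0.05 and 5 called by DESeq2. Without the symmetric K14R library the count was 105, and without the symmetric K14Q library 84. All 4 were short frames opposite 5S ribosomal RNA genes.

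Frames opposite the 5S genes gave the largest of the called differences, and their levels separated into high and low libraries within both substitutions. YLR156C-A (chrXII:472479-472610), YLR157C-C (chrXII:482059-482190) and YLR159C-A (chrXII:485711-485842) are annotated on the strand opposite the 5S ribosomal RNA genes of the ribosomal DNA. The fourth frame of this kind, YLR154C-H (chrXII:468827-468958), is identical to them at all 132 bases. 5S RNA is the small ribosomal RNA made by RNA polymerase III, and each frame overlaps its gene by 105 bases. The shared sequence is shown because pairs from these copies cannot be assigned to 1 of them by sequence within the frame. It reads on the minus strand of R64 (RefSeq), with the bases opposite the annotated 5S gene in capitals.
YLR159C-A: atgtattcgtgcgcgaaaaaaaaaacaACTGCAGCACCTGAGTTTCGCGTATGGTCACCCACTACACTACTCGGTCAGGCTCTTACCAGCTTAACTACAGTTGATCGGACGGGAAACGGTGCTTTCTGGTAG

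YLR159C-A had 0.49, 0.39 and 68.2 CPM in the H3X, H3Y and symmetric K14R libraries of batch 2, and 0.45, 0.34 and 0.80 CPM in those of batch 7. It had 0, 0.32 and 0 CPM in the H3X, H3Y and symmetric K14Q libraries of batch 5, and 90.5, 64.6 and 106 CPM in those of batch 7. Thus 1 of 6 K14R libraries and 3 of 6 K14Q libraries were high, and the groups overlapped. The fitted log2 difference was -8.59 ± 1.29 (SE; edgeR adjusted p = 0.000237), with -8.15 ± 1.26 for YLR157C-C and -8.34 ± 1.30 for YLR156C-A. These fitted values rest on libraries at or near 0 and are not bounds. The identical YLR154C-H did not pass over all forms (-3.14 ± 0.96, edgeR adjusted p = 0.223). It was high in the same libraries but not near 0 in the others. It had 61.6, 54.3 and 482 CPM in H3X, H3Y and symmetric K14R of batch 2, and 77.5, 33.1 and 62.2 CPM in batch 7. In K14Q it had 17.6, 11.8 and 6.45 CPM in batch 5, and 531, 464 and 671 CPM in batch 7. YLR154W-B (chrXII:454392-454556), opposite the 25S gene, was at 0.82 to 32.9 CPM in K14R and 0 to 92.1 CPM in K14Q, with a fitted log2 difference of -5.45 ± 1.11 (edgeR adjusted p = 0.0245).

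The summed level also differed between sequencing batches over the full-length libraries of the series. Summed over YLR156C-A, YLR157C-C and YLR159C-A it was at most 8.43 CPM in the 6 libraries of batch 5 and at most 8.98 CPM in the 13 of batch 8, while 6 of the 30 libraries of batch 7 exceeded 30 CPM and 17 lay under 6. In pseudo-wild-type it was 91.9, 96.9 and 75.6 CPM in batches 2, 3 and 4, and 0.42 and 1.94 CPM in batch 8. Libraries were poly(A)-selected, and ribosomal RNA is largely without a poly(A) tail. The part that batch, selection or strain has in these values was not tested. Within batch 7 the edgeR log2 differences were -7.41 ± 0.43 for YLR159C-A and -7.02 ± 0.44 for YLR156C-A (adjusted p = 0.00172 for each), -6.87 ± 0.54 for YLR157C-C (adjusted p = 0.00576) and -3.37 ± 0.37 for YLR154C-H (adjusted p = 0.0454). Over all forms, none of those 3 frames passed without the K14Q library of batch 7 in its H3X, H3Y or symmetric form, and YLR159C-A then stood at -6.74 (edgeR adjusted p = 1), -8.32 (adjusted p = 0.196) and -6.66 (adjusted p = 1). With the replicate number as a block and no batch term YLR159C-A stood at -2.90 (edgeR adjusted p = 0.509). YLR154W-B did not pass without the H3X (-4.69, edgeR adjusted p = 0.435) or symmetric (-2.56, adjusted p = 1) K14Q library of batch 7.

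Ty1, a retrotransposon that copies itself through RNA and makes a Gag protein and a Gag-Pol fusion, was lower in K14R in every copy counted, without passing the test over all forms. All 29 Ty1 Gag-Pol frames had a negative log2 difference, with a median of -1.20 and a range of -1.32 to -0.95, beside a median of 0.01 over all genes, and none passed (smallest edgeR adjusted p = 0.133). The 3 Ty1 Gag frames tested had a median of -1.14, and the 10 Gag-Pol frames of the related Ty2 had a median of -1.06. Copies of a family are closely similar in sequence, and how read pairs were divided among them was not tested, so these frames are not independent measurements. YLR256W-A, a Ty1 Gag frame at chrXII:651117-652439, had the smallest adjusted p of the 3 Gag frames (-1.20 ± 0.27, edgeR adjusted p = 0.0633).

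Summed over the 29 Ty1 Gag-Pol frames, the levels in batch 7 were 4116, 1757 and 801 CPM in H3X, H3Y and symmetric K14R, and 6913, 3178 and 7932 CPM in H3X, H3Y and symmetric K14Q. Each K14R library of batch 7 lay below the K14Q library of its form, in all 29 frames, as did 14.6% of all genes. In the other batches the sums were 14807, 11558 and 7562 CPM in K14R (batch 2) and 14968, 17796 and 15898 CPM in K14Q (batch 5). Pseudo-wild-type stood at 13231, 11295 and 20988 CPM in batches 2, 3 and 4 and at 5650 and 5488 CPM in batch 8. Levels were lower in batches 7 and 8 than in batches 2 to 5 in K14R, K14Q and pseudo-wild-type alike, and the K14R and K14Q ranges overlapped. A single frame shows the same order. YAR009C (chrI:160597-164187) had 417, 307 and 213 CPM in H3X, H3Y and symmetric K14R of batch 2 and 96.7, 41.1 and 16.7 CPM in batch 7, against 418, 515 and 488 CPM in K14Q of batch 5 and 181, 73.7 and 200 CPM in batch 7.

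By form, the median Ty1 Gag-Pol difference was -0.56 in H3X, -0.90 in H3Y and -2.14 in symmetric strains, and all 29 frames fell in the symmetric comparison, where 1.18% of genes fell. Without the symmetric K14R library of batch 7 that median was -1.48. Over all forms the median was then -0.92, whereas without the symmetric K14R library of batch 2 it was -1.42. Without the H3Y K14Q library of batch 7 it was -1.50. Without both H3X K14R libraries it was -1.55, and 24 of the 29 frames passed in edgeR. Without the symmetric K14R library of batch 7, the median within batch 7 was -0.83, on 1 residual degree of freedom. Among the fits that left out 1 library, some called frames and others did not. Such fits left a strain with 1 library or none, so their calls are not counted here. The sign was negative in all 29 frames in every alternative of the 98-library fit and within batch 7. The DESeq2 calls over all forms, counted above, included 20 of the 29. The edgeR fit with each library's GC and length trends removed called 19, where 0.392% of genes were called lower. With each library's GC and length slopes as covariates the median over all forms was -0.69 and none of the 29 was among the 6 genes that passed (0.0941%). Relative to pseudo-wild-type the median was -0.82 in K14R and 0.40 in K14Q, and no frame passed in either comparison. Those 2 comparisons share the 5 pseudo-wild-type libraries.

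**Figure D1:**
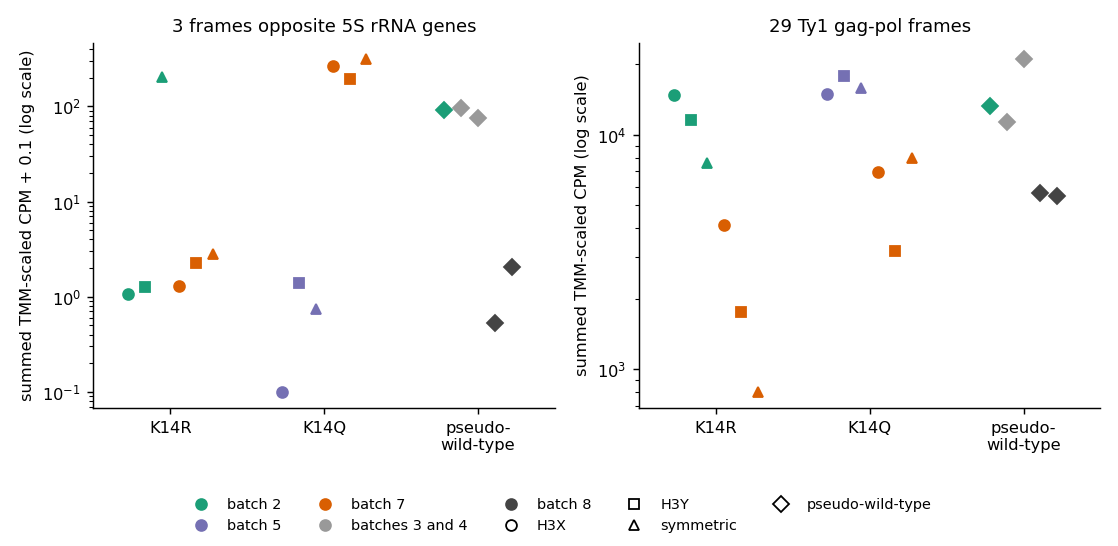
Summed TMM-scaled CPM of YLR156C-A, YLR157C-C and YLR159C-A (left, with 0.1 added) and of 29 Ty1 Gag-Pol frames (right) in each K14R, K14Q and pseudo-wild-type library, on log scales; each point is a library, with colour for batch and shape for form. On the left 1 K14R and 3 K14Q libraries lie above 190 CPM and the other K14R and K14Q libraries below 3 CPM, with pseudo-wild-type at 75.6 to 96.9 CPM in batches 2 to 4 and 0.42 and 1.94 CPM in batch 8. On the right the 3 K14R libraries of batch 7 lie at 801 to 4116 CPM and the 3 K14Q libraries of batch 7 at 3178 to 7932 CPM.

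Neighbouring reading frames at the left end of chromosome VI were higher in K14R on the H3Y copy. In H3Y strains YFL066C (chrVI:1437-2615) rose by 2.42 ± 0.38 log2 units (edgeR adjusted p = 0.000375), YFL065C (chrVI:3030-3338) by 2.56 ± 0.32 (adjusted p = 3.27e-06) and YFL064C (chrVI:3322-3846) by 1.64 ± 0.32 (adjusted p = 0.0159). They were the only 3 genes called in that form (0.0471%). YFL066C is annotated as a helicase-like protein of the Y' element, a repeat found at many chromosome ends, and where copies are identical their reads cannot be told apart.

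YFL065C had 46.5 and 20.3 CPM in the H3Y K14R libraries of batches 2 and 7, against 6.77 and 3.78 CPM in the H3Y K14Q libraries of batches 5 and 7. YFL066C had 234 and 81.1 CPM in H3Y K14R and 49.8 and 15.3 CPM in H3Y K14Q. YFL064C had 101 and 21.5 CPM in H3Y K14R and 30.1 and 7.98 CPM in H3Y K14Q, and these pairs overlap, the batch 7 library being the lower one in both. In pseudo-wild-type YFL065C stood at 5.82 to 8.40 CPM and YFL066C at 34.6 to 56.2 CPM, below both H3Y K14R libraries. In the other forms the 3 frames did not pass, with log2 differences of -0.14 to 0.46 in H3X and -0.05 to 0.10 in symmetric strains, and the difference between forms was not itself tested for H3Y. Without the H3Y K14R library of batch 2 the H3Y values were 2.34 for YFL065C (edgeR adjusted p = 0.000274), 2.05 for YFL066C (adjusted p = 0.0321) and 1.41 for YFL064C (adjusted p = 0.799). Without the H3Y K14Q library of batch 7 they were 2.40 for YFL065C (edgeR adjusted p = 0.0231), 1.96 for YFL066C (adjusted p = 0.744) and 1.57 for YFL064C (adjusted p = 0.744), and without that of batch 5 YFL064C stood at 1.68 (adjusted p = 0.291). With library slopes as covariates 6 genes passed in H3Y (0.0941%). Averaged over the 3 forms YFL065C was the 1 higher gene, at 0.96 ± 0.21 (edgeR adjusted p = 0.0461), a call that did not hold in 19 of the alternatives run.

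**Figure D2:**
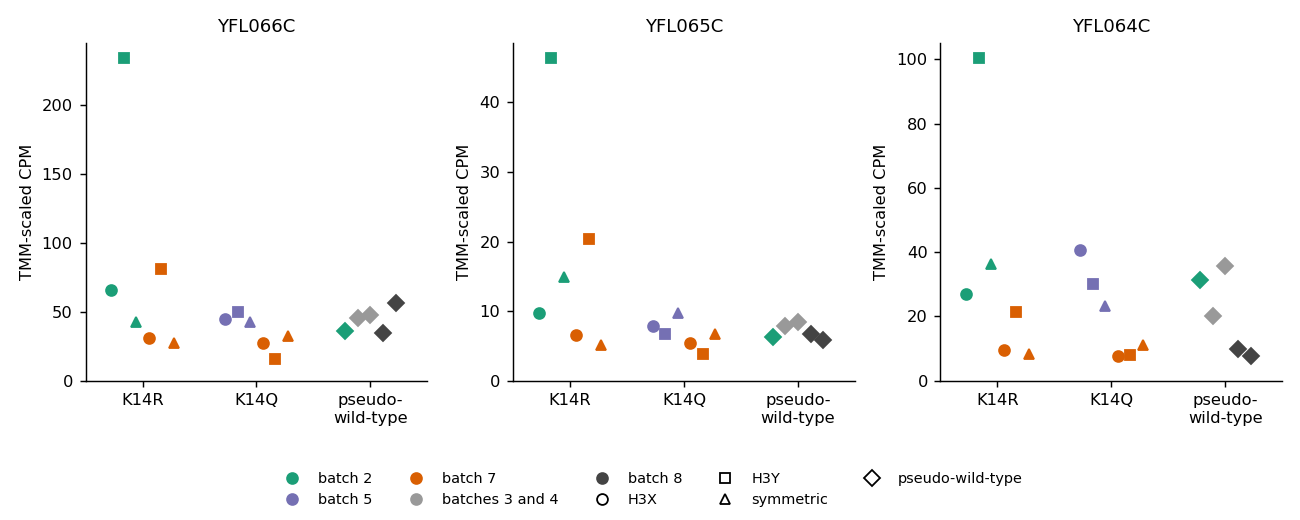
TMM-scaled CPM of YFL066C, YFL065C and YFL064C in each library of K14R, K14Q and pseudo-wild-type, on linear axes from 0; each point is a library, with colour for batch and shape for form. The H3Y K14R library of batch 2 is highest in all 3 panels, at 234, 46.5 and 101 CPM.

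Outside the Ty elements, genes with the smallest p in each direction are given below, 4 higher and 5 lower in K14R, and none passed. Higher in K14R by value was GDH3, a glutamate dehydrogenase used in ammonium assimilation (chrI:31567-32940), at 13.1 to 61.1 CPM in K14R (median 19.8) and 8.52 to 18.4 CPM in K14Q (median 15.1), a log2 difference of 1.01 ± 0.27 (edgeR adjusted p = 0.143). PDC6, a minor pyruvate decarboxylase (chrVII:651290-652981), stood at 31.4 to 134 CPM in K14R (median 39.5) and 18.9 to 35.3 CPM in K14Q (median 32.8), a difference of 0.86 ± 0.23 (adjusted p = 0.145). The highest library of both genes was the symmetric K14R library of batch 7. ODC1, a mitochondrial oxodicarboxylate carrier, differed by 0.66 ± 0.18 and AGP1, an amino acid permease, by 0.67 ± 0.19 (edgeR adjusted p = 0.145 for each). Without that library the 4 differences were 0.66 for GDH3, 0.41 for PDC6, 0.44 for ODC1 and 0.32 for AGP1. The 6 K14R and 6 K14Q libraries overlapped for each of these genes.

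The 5 with the smallest p among such genes lower in K14R also overlapped between groups. GAL7, a galactose pathway enzyme repressed in glucose, stood at 7.3 to 12.3 CPM in K14R and 11.6 to 22.0 CPM in K14Q (-0.69 ± 0.20, edgeR adjusted p = 0.204), and its value without the symmetric K14R library of batch 7 was -0.70. UBP14, a ubiquitin protease, stood at 73.2 to 146 CPM in K14R and 123 to 175 CPM in K14Q (-0.41 ± 0.13, adjusted p = 0.237, and -0.27 without that library). STE12, the transcription factor of the pheromone response, stood at 30.9 to 91.2 CPM in K14R and 84.9 to 108 CPM in K14Q (-0.54 ± 0.17, adjusted p = 0.266), its lowest library again being the symmetric K14R library of batch 7, without which it stood at -0.34. IZH4, a membrane protein linked to zinc homeostasis, differed by -0.78 ± 0.25 (edgeR adjusted p = 0.254), or -0.57 without that library. TAR1, a frame opposite the 25S gene (chrXII:454696-455070), ranged over 7.31 to 300 CPM in K14R and 0.645 to 929 CPM in K14Q (-3.58 ± 1.11, adjusted p = 0.237), with high and low libraries in both substitutions like its ribosomal DNA neighbours, and stood at -4.57 without that library.

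**Figure D3:**
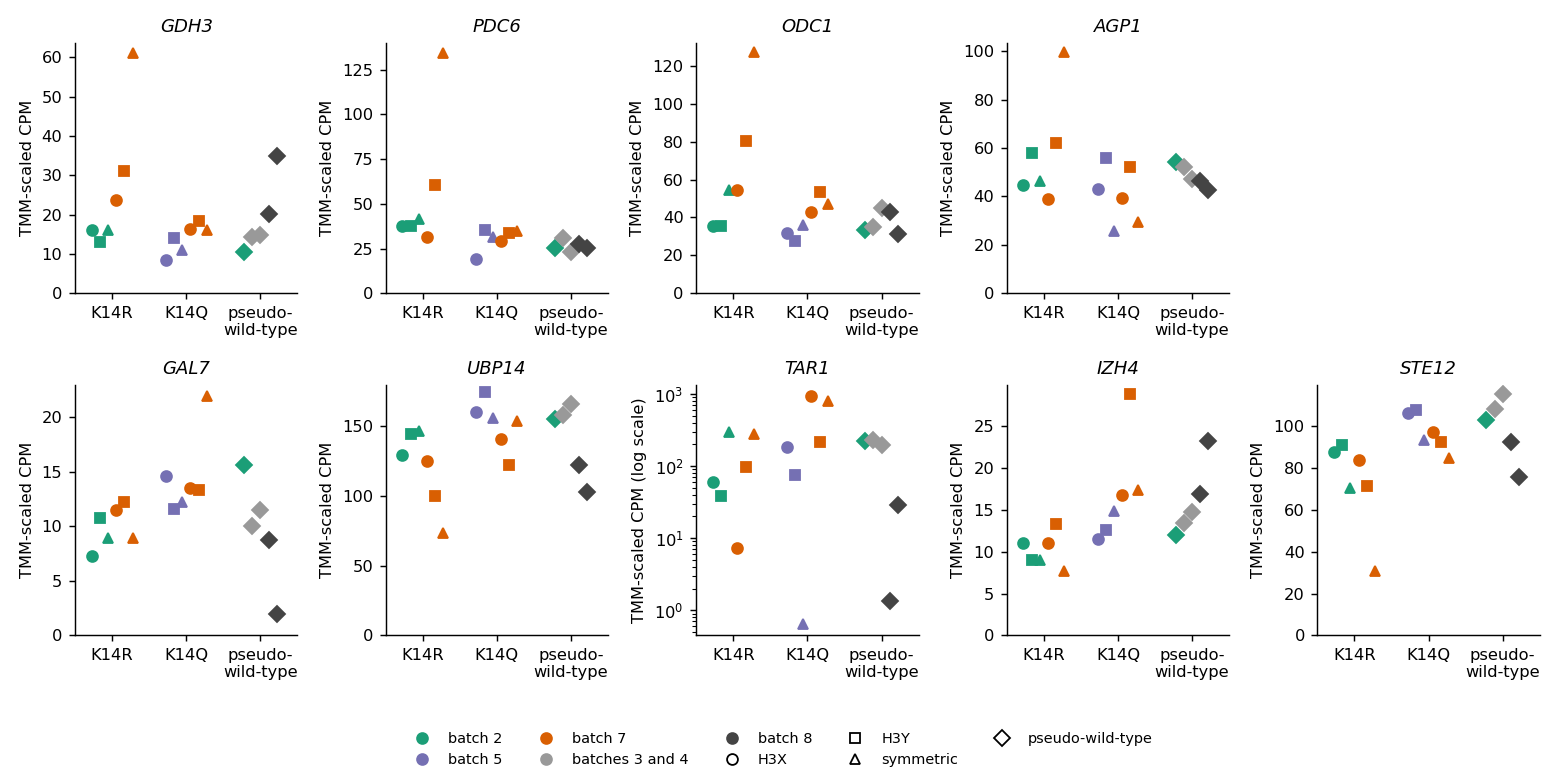
TMM-scaled CPM by library of genes with the smallest p among those higher (top, 4 genes) and lower (bottom, 5 genes) in K14R, on linear axes from 0 except TAR1, which has a log axis; each point is a library of K14R, K14Q or pseudo-wild-type, with colour for batch and shape for form. The K14R and K14Q libraries overlap in every panel.

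For 10 genes all 6 K14R libraries lay beyond all 6 K14Q libraries, 3 higher (0.0471%) and 7 lower (0.11%). They were picked for this pattern, so no test of it is given. OPY2, a membrane anchor of the osmotic stress signalling pathway, had 195 to 517 CPM in K14R and 111 to 184 CPM in K14Q, a gap of 10.8 CPM between the nearest libraries. FUI1, the uridine permease, had 103 to 141 CPM in K14R and 59.6 to 102 CPM in K14Q. The third higher gene was the uncharacterised YML082W, at 81.4 to 119 CPM in K14R and 56.1 to 81.2 CPM in K14Q. PPS1, a protein phosphatase, had 40.3 to 150 CPM in K14R and 165 to 204 CPM in K14Q, a gap of 15.1 CPM. PEX25, a peroxisomal membrane protein, had 63.5 to 77.0 CPM in K14R and 80.6 to 91.0 CPM in K14Q. The other 5 lower genes were SRP72 of the signal recognition particle, SNX41 of endosomal sorting, MDM32 of the mitochondrial inner membrane, TFB2 of the general transcription factor TFIIH, and YDR183C-A. Most gaps were narrower than those of OPY2 and PPS1. They were 6.38 CPM for SRP72, 3.60 CPM for PEX25 and 1.06 CPM for SNX41. For FUI1, YML082W, MDM32, TFB2 and YDR183C-A the gap was only 0.07 to 0.57 CPM. None of the 10 passed over all forms (edgeR adjusted p of 0.287 for OPY2 to 0.455 for PEX25), and with library slopes as covariates OPY2 stood at 0.23 and PPS1 at -0.26, against 0.65 and -0.54 without them. Leaving out the symmetric K14R library of batch 7 gave 0.31 for OPY2 and -0.24 for PPS1.

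Genes that write, erase or read lysine 14 acetylation did not pass over all forms, and neither did any gene of the complexes listed. GCN5 stood at 38.3 to 72.6 CPM in K14R (median 59.9) and 47.1 to 76.1 CPM in K14Q (median 66.7), a log2 difference of -0.27 ± 0.17 (edgeR adjusted p = 0.427). SAS3 stood at 12.9 to 70.8 CPM in K14R and 28.6 to 108 CPM in K14Q (-0.58 ± 0.41, adjusted p = 0.458). RPD3 differed by 0.20 ± 0.11 (edgeR adjusted p = 0.390), HDA1 by -0.29 ± 0.20 (adjusted p = 0.458) and RSC4 by -0.54 ± 0.32 (adjusted p = 0.401). These genes were chosen for their role, after their values had been seen. Over lists, 0 of 27 SAGA and NuA3 subunits, 0 of 19 other acetyltransferase subunits, 0 of 28 deacetylase subunits and 0 of 25 RSC and SWI/SNF subunits passed, with medians of -0.13, -0.18, -0.00 and -0.22. The 14 silencing genes had a median of -0.38 and none passed. With library slopes as covariates the medians of those 5 lists were 0.04, -0.04, 0.04, 0.04 and 0.09.

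Histone genes gave no difference past the test over all forms in the 11 tested (median 0.16). HHT2, the H3 gene on both plasmids by the labels' allele names, stood at 2020 to 7835 CPM in K14R (median 4257) and 1787 to 8254 CPM in K14Q (median 3966), a log2 difference of -0.08 ± 0.22 (edgeR adjusted p = 0.847). Its direction depended on the libraries and batch term used. HHF2, an H4 gene, differed by 0.16 ± 0.26 (adjusted p = 0.732). The other H3 gene, HHT1, had 0.20 to 4.30 CPM in K14R and 1.29 to 2.79 CPM in K14Q in these strains, where it is deleted by the labels. HHF1, which the labels place on the LEU2 plasmid of the substituted strains, had 0.80 to 2.85 CPM in K14R and 2.19 to 25.6 CPM in K14Q, against 1133 to 3789 CPM in K14R and 1039 to 2407 CPM in K14Q for HHF2, a reading frame of the same length. The 3 highest HHF1 values, 7.30, 25.6 and 11.0 CPM, were those of H3X, H3Y and symmetric K14Q in batch 5. The plasmid and auxotrophy genes TRP1, LEU2, URA3 and HIS3 did not pass over all forms.

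Among symmetric strains, with the substitution on both H3 copies, 468 genes passed (7.34%), 393 higher (6.16%) and 75 lower (1.18%) in K14R. Among the 22 glycolysis and fermentation genes 11 rose, among 55 stress-induced genes 12, among 51 amino acid synthesis genes 10, among 40 cell wall genes 9, among 17 inositol and phospholipid genes 5, among 25 ergosterol genes 7 and among 46 respiration genes 7, none of these lists having a lower gene. Among 138 ribosomal protein genes 10 rose, a share close to that of all genes. ENO1, an enolase of glycolysis (chrVII:1000927-1002240), had 1098 and 3232 CPM in symmetric K14R of batches 2 and 7, against 690 and 566 CPM in symmetric K14Q of batches 5 and 7, a rise of 2.05 ± 0.45 log2 units (edgeR adjusted p = 0.0247). RPL3, a large-subunit ribosomal protein (chrXV:444686-445849), had 2909 and 11426 CPM in symmetric K14R and 2292 and 2558 CPM in symmetric K14Q, a rise of 1.60 ± 0.40 (adjusted p = 0.0262). FTR1, the iron permease (chrV:460526-461740), had 278 and 731 CPM in symmetric K14R and 211 and 178 CPM in symmetric K14Q, a rise of 1.48 ± 0.35 (adjusted p = 0.0247). In each of the 3 genes the K14R library of batch 7 was the high one.

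These symmetric calls depended on which library was left out. Without the K14R library of batch 7 no gene passed in edgeR (96 at an unadjusted p under 0.05), and the median absolute difference of the same 468 genes was 0.29 log2 units against 1.29 with it, with the same sign in 417 of them. Without the K14R library of batch 2 instead, 3099 genes passed (48.6%). Without the symmetric K14Q library of batch 7 none passed, and without that of batch 5 there were 36. The median for the 11 glycolysis genes was 0.29 without the batch 7 library and 1.48 with it, and for the 10 ribosomal protein genes 0.07 and 1.43. The called genes differed in base composition, with a median GC content of 43.2% for higher and 38.3% for lower genes, beside 39.7% over all genes. This is the direction of the GC trend of the K14R library of batch 7. The calls were lost without that library, so this direction is no separate evidence, and the cause was not tested. With each library's GC and length slopes as covariates no gene passed (382 at an unadjusted p under 0.05), and limma voom with sample weights called none. The latter gave the symmetric K14R library of batch 7 the lowest weight of the 12 (0.12). The symmetric K14R library of batch 2 had the next lowest (0.18), so the weights do not single out 1 of the pair. Removing smooth trends in place of slopes left 318 genes (4.99%), 241 higher (3.78%) and 77 lower (1.21%).

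**Figure D4:**
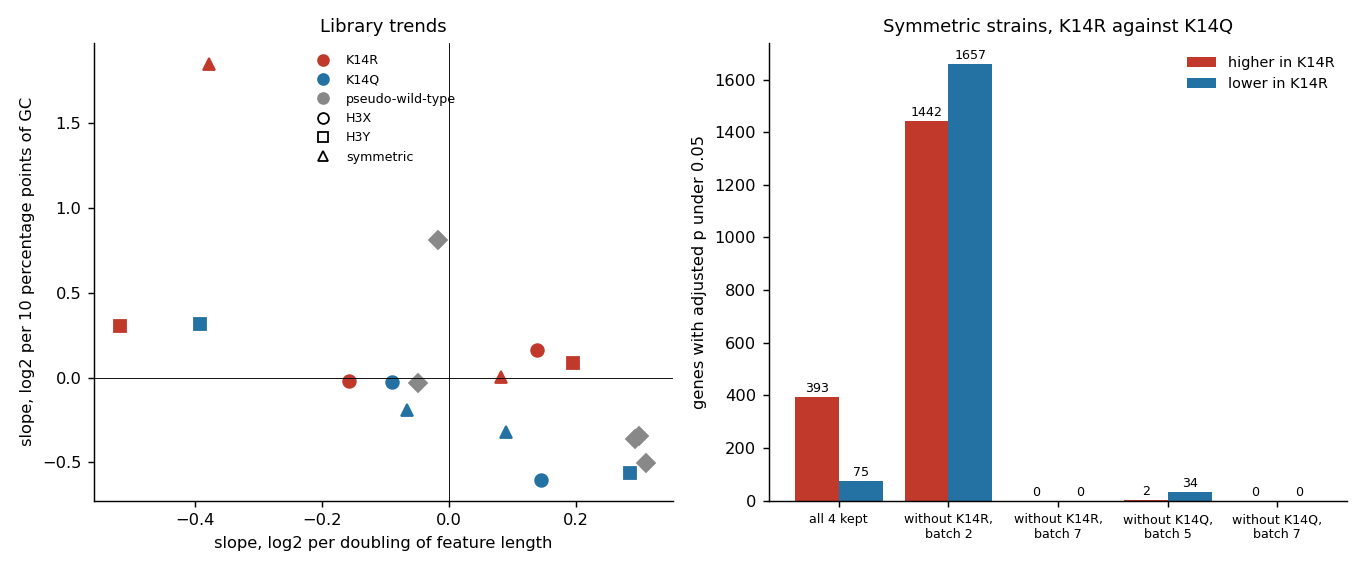
Left: slope of log2 CPM on gene length (x axis) against slope on GC content (y axis), relative to the median library; each point is a K14R, K14Q or pseudo-wild-type library, with shape for form. The symmetric K14R library of batch 7 lies highest, at 1.85. Right: number of genes higher and lower in symmetric K14R against symmetric K14Q at an edgeR adjusted p under 0.05, with all 4 libraries and without each in turn; bars start at 0 and the counts are 393 and 75 with all 4, and 0 and 0 without the K14R library of batch 7.

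Whether the K14R to K14Q difference itself depended on 1 or both copies being substituted was tested as the symmetric difference minus the mean of the H3X and H3Y differences. No gene passed in edgeR (0%), with 1061 at an unadjusted p under 0.05 and a smallest adjusted p of 0.253. The 5 with the smallest p included AGP1, with a symmetric difference of 1.53 ± 0.30 against 0.16 ± 0.30 in H3X and 0.30 ± 0.29 in H3Y (1.30 ± 0.35 for the difference of differences). COX15, which makes heme A for cytochrome oxidase, differed by 1.32 ± 0.36 and VPS62, a vacuolar sorting gene, by 0.88 ± 0.25. SDT1, a nucleotidase, differed by -1.02 ± 0.28 and MLH3, a mismatch repair gene, by -0.75 ± 0.22. COX15 had 150 and 313 CPM in symmetric K14R of batches 2 and 7, against 70.9 and 116 CPM in symmetric K14Q of batches 5 and 7, the highest again being the library with the GC trend. Without that library the differences of differences were 0.46 for AGP1, 0.60 for COX15, 0.45 for VPS62, -1.17 for SDT1 and -0.55 for MLH3. Without the symmetric K14R library of batch 2 the count was 2314 genes.

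Set against pseudo-wild-type, 3 genes passed in K14R (0.0471%, 1 higher and 2 lower) and none in K14Q (0%, 323 at an unadjusted p under 0.05). Both comparisons share the 5 pseudo-wild-type libraries, so their values are given side by side only. For FAT3, a fatty acid uptake gene, the log2 difference from pseudo-wild-type was 0.96 ± 0.19 in K14R (edgeR adjusted p = 0.0358) and 0.44 in K14Q. SEO1, a putative permease, stood at -0.99 ± 0.19 in K14R (adjusted p = 0.0257) and -0.61 in K14Q, and FAR1, the pheromone-induced inhibitor of the G1 cyclin kinase, at -0.87 ± 0.18 in K14R (adjusted p = 0.0446) and -0.75 in K14Q. For GDH3 the values were 0.52 ± 0.31 in K14R and -0.49 ± 0.34 in K14Q, for AGP1 0.18 ± 0.20 and -0.48 ± 0.22, and for GAL7 -0.13 ± 0.23 and 0.56 ± 0.25. IZH4 stood at -0.81 ± 0.28 in K14R and -0.03 ± 0.30 in K14Q, and STE12 at -0.49 ± 0.18 in K14R and 0.05 ± 0.20 in K14Q.

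The K14R strains also had 3'-end libraries, sequenced together with pseudo-wild-type in batch 11, whereas by the labels the series holds no K14Q library of that kind. There 2059 of 4961 genes tested differed between K14R and pseudo-wild-type (41.5%), 1132 higher (22.8%) and 927 lower (18.7%) in K14R. Among the genes named above the log2 differences were -0.07 ± 0.15 for GDH3, -0.17 ± 0.10 for ODC1, -0.16 ± 0.16 for AGP1, -0.27 ± 0.12 for IZH4 and 0.20 ± 0.10 for STE12, with edgeR adjusted p values of 0.715, 0.194, 0.428, 0.070 and 0.120. Of the 393 genes higher in the symmetric full-length comparison, 322 were tested in 3'-end libraries, where 2 were higher, 168 lower and 152 not called in K14R. ENO1 was among the lower ones (-0.50, edgeR adjusted p = 0.000117), as were PGK1 (-0.44, adjusted p = 0.000465), RPL3 (-0.32, adjusted p = 0.000483) and TDH1 (-0.27, adjusted p = 0.0274), while FTR1 stood at -0.15 (adjusted p = 0.310). Of the 75 genes lower in the symmetric full-length comparison, 23 were tested in 3'-end libraries, where 7 were higher, 0 lower and 16 not called in K14R. The 2 comparisons differ in kind, the first being symmetric K14R against symmetric K14Q and the second K14R averaged over the 3 forms against pseudo-wild-type.

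The genes of chromosome XI from TOF2 to YKR041W (chrXI:458924-518950) were set apart because both H3X K14R libraries were raised there as a block. The median log2 ratio of its 31 tested features to the median library was 1.00 in H3X K14R of batch 2 and 0.97 in that of batch 7, against -1.003 to 0.14 in the other 96 full-length libraries. The K14Q libraries lay at -0.09 to 0.07, and the lowest value, -1.003, was that of the symmetric K14R library of batch 7. In 3'-end libraries the 3 H3X K14R replicates were at 1.02, 0.85 and 0.90, against -0.27 to 0.14 in the other 30. All 5 H3X K14R libraries of both kinds lay at 0.85 or above, and every other library at 0.14 or below.

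The raised run held 27 features from TOF2 to GAP1, each above 0.5 in both H3X K14R full-length libraries, with a range of 0.55 to 1.36. YKR041W, the next gene outward from GAP1, stood at 0.11 and -0.39. GAP1 is the general amino acid permease. Copy number was not measured here. In the H3X comparison the median of the segment was 0.97 log2 units, and 2 of the genes passed, the only 2 called in that form (0.0314%). KAE1, a tRNA modification enzyme (chrXI:511999-513159), had 215 and 246 CPM in H3X K14R of batches 2 and 7, against 90.7 and 121 CPM in H3X K14Q of batches 5 and 7 (1.12 ± 0.20, edgeR adjusted p = 0.00649). IRS4, a phosphoinositide regulator (chrXI:476216-478063), had 87.0 and 86.2 CPM in H3X K14R and 33.5 and 42.7 CPM in H3X K14Q (1.14 ± 0.23, adjusted p = 0.0431). Neither passed when any of the 4 H3X libraries was left out, at 1.07 to 1.20 for KAE1 (edgeR adjusted p of 0.108 to 0.471) and 1.08 to 1.26 for IRS4 (adjusted p of 0.401 to 0.908). With library slopes as covariates 14 of the 18 genes called in H3X lay in the segment, and with limma voom 15 of 21. The median of the segment was -0.11 in H3Y, -0.52 in symmetric strains and 0.12 over all forms, where none of its genes passed.

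The run lies between a pair of Ty1 long terminal repeats (LTRs) in the same orientation, at chrXI:458140-458471 and chrXI:517453-517784, both on the minus strand of R64 (RefSeq). The annotation gives 3 more Ty1 LTRs inside the run, starting at 490286 (minus strand), 490464 (plus strand) and 513532 (minus strand). The outer pair are identical at 325 of 332 bases (97.9%). Their first 80 bases on that strand are shown because they flank the raised genes, and capitals would mark a base that differs between them.
LTR beside TOF2: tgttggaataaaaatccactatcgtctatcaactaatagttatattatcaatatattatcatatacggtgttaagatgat
LTR beyond GAP1: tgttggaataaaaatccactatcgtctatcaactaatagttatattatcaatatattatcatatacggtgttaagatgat
No base differed in this stretch. Leaving both H3X K14R libraries out of the comparison over all forms gave 57 called genes (25 higher, 32 lower) in place of 5. The lower ones included 24 Ty1 Gag-Pol, 2 Ty1 Gag and 2 Ty2 Gag-Pol frames.

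**Figure D5:**
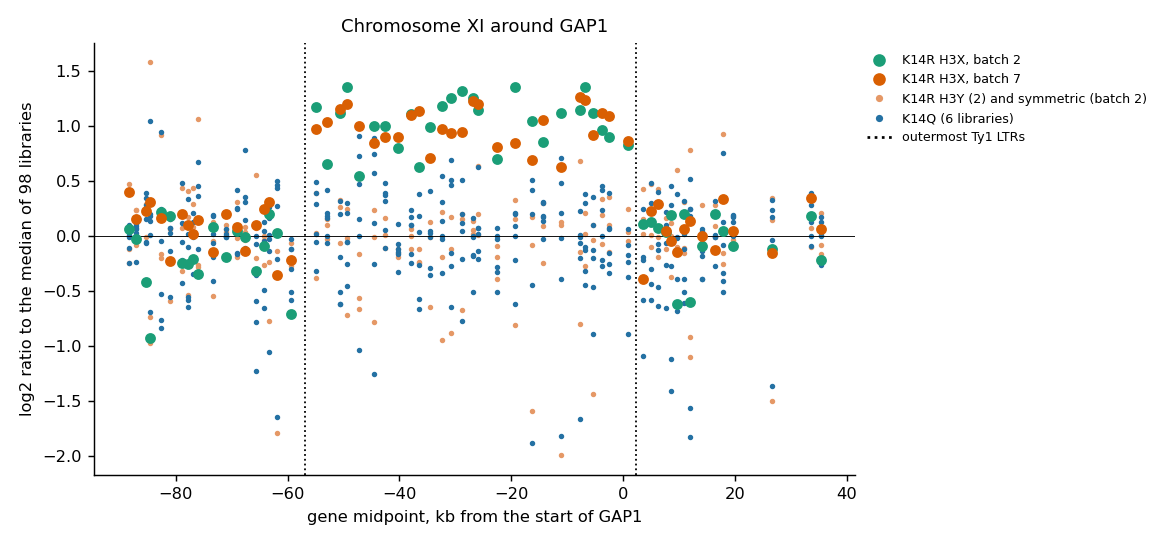
Log2 ratio of each gene to the median of the 98 full-length libraries (y axis) against distance from the start of GAP1 in kb (x axis). Green and orange points are the H3X K14R libraries of batches 2 and 7, small points the H3Y K14R libraries, the symmetric K14R library of batch 2 and the 6 K14Q libraries, and dotted lines the Ty1 LTRs at either end. Between the lines the H3X K14R libraries lie at 0.55 to 1.36.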

How the data were processed

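The authors deposited whole-number read counts per gene for each library (per the file headers, featureCounts 1.4.6-p2 on read pairs, reverse strand, mapping quality of at least 30, duplicates ignored). The submitters' processing notes also name TopHat2 2.0.12, Bowtie2 and the sacCer3 genome. Per the labels' protocols, libraries were poly(A)-selected and strand-specific. The mapping quality limit leaves repeats such as Ty1 and ribosomal DNA with only part of their reads.

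Of 6692 features, 6376 passed edgeR's filterByExpr and were fitted together in all 98 full-length libraries with strain group and batch as terms (edgeR 4.0.16, R 4.3.3, TMM scaling, quasi-likelihood test, Benjamini-Hochberg adjustment, threshold 0.05; 35 residual degrees of freedom and a biological variation coefficient of 0.230). The other strains of batches 2, 5 and 7 link the batches. The all-forms contrast drew a fraction of 0.661 of its K14R weight and 0.75 of its K14Q weight from batch 7. Batch 7 was also fitted alone with form as a term (2 residual degrees of freedom, coefficient 0.340, or 0.118 without the symmetric K14R library). Standard errors are the log2 difference divided by the square root of its F statistic. The 3'-end libraries of batch 11 (33) were fitted by strain group. limma 3.58.1 and DESeq2 1.42.0 served as alternatives, and the scripts were tested on simulated counts.

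Genes outside the chromosome XI segment were named by rule, namely those past the threshold with a standard symbol, a mean of at least 5 CPM and the same direction in the 3 forms of batch 7, or else the 5 with the smallest p in each direction (1 of them is not reported here). Features of the ribosomal DNA and of Ty elements, the 10 non-overlapping genes, the lysine 14 genes and the 3 chromosome VI frames were chosen after their values were seen. Of the 41 gene lists, 5 gene names were not found in the files. The members and lists were chosen with earlier results of these data known. 6008 features matched the R64 annotation of RefSeq, which gave coordinates and 5276 symbols. Libraries of the same number deviated together (correlations of 0.522 for H3X, 0.880 for H3Y and 0.334 for symmetric strains). Number 2 marks batch 7 in both substitutions, so the block overlaps with the batch term. Replicate libraries differed by more than sampling noise, with a chi-square per degree of freedom of at least 13.0. Intervals cover counting and library spread only.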

Additional observations from a re-analysis of the deposited data

Results flagged for a closer look

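Values here stand far from the rest of their group of 6 libraries, the gap to the nearest library being a larger share of the group's range than Dixon's 95% critical value for 6 values. In all, 23 of 88 groups examined met this, and chance alone flags about 1 in 20 independent groups. That rate is no comparison here, since many of the genes were named for differences that 1 library made large, and 13 of the 23 are that library, the symmetric K14R library of batch 7. It was highest in K14R for GDH3 (61.1 CPM), PDC6 (134 CPM), ENO1 (3232 CPM), PGK1 (16467 CPM), TDH1 (845 CPM), RPL3 (11426 CPM), FTR1 (731 CPM), COX15 (313 CPM), VPS62 (165 CPM) and YLR154C-G (26150 CPM), and lowest for STE12 (30.9 CPM). The same library had the steepest GC slope (1.85 log2 units per 10 percentage points) and the lowest TMM factor (0.536) of the K14R libraries.

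The symmetric K14R library of batch 2 was highest in K14R for the ribosomal DNA frames YLR156C-A (66.5 CPM), YLR157C-C (68.8 CPM), YLR159C-A (68.2 CPM) and YLR154W-B (32.9 CPM). The H3Y K14R library of batch 2 was highest at the chromosome VI end, in YFL065C (46.5 CPM), YFL064C (101 CPM) and YFL066C (234 CPM). Among K14Q libraries, GAL7 was highest in the symmetric library of batch 7 (22.0 CPM), IZH4 in the H3Y library of batch 7 (28.9 CPM) and HHF1 in the H3Y library of batch 5 (25.6 CPM).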

How the results depend on the processing

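The 5 genes called over all forms became 25 with library trends removed, 57 without both H3X K14R libraries, 36 with DESeq2 and 1 with limma voom. None were called without the 3 batch 7 libraries with the steepest trends, in the 12 libraries with or without a batch term, or with the replicate block, which was fitted for that comparison alone. Leaving out 1 library gave 0 to 546 over all forms (546 without the symmetric K14R library of batch 2, 33 without the H3Y K14Q library of batch 7, 3 without either H3X K14R library, and 0 without the H3X or the symmetric K14Q library of batch 7), 0 to 3099 in symmetric strains in place of 468 (3099 without K14R of batch 2, 0 without K14R of batch 7, 36 without K14Q of batch 5, 0 without K14Q of batch 7), 0 to 0 in H3X in place of 2, 1 to 3 in H3Y in place of 3, 0 to 2314 for the difference between forms in place of 0, and 4 to 105 in batch 7 in place of 4 (105 without symmetric K14R, 84 without symmetric K14Q). For symmetric, H3X and H3Y strains, these ranges cover leaving out libraries of that form only. The H3X count also moved without either symmetric K14R library, a case these ranges do not cover. Where 1 library of a strain remained, it was assumed to vary like the other strains.

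In symmetric strains library slopes as covariates gave 0 genes, as did removed trends without the K14R library of batch 7. In H3X, slopes gave 18, limma voom 21 and RLE scaling 1. The chromosome XI median in H3X K14R of batch 2 was 1.11 over genes of at least 20 CPM, against 1.00. YLR154C-G, a frame overlapping the 25S gene on the same strand, stood at 0.63 ± 0.25 over all forms (edgeR adjusted p = 0.328). Directions turned for YLR154C-G (-0.11 with trends removed, -0.058 also without the symmetric K14R library of batch 7), for HHF2 (-0.026 with trends removed, -0.038 without H3X K14Q of batch 7, with up to 0.32 when other single libraries were left out) and for HHT2 (0.050 without both H3X K14R libraries, 0.15 without H3Y K14Q of batch 7 in a range down to -0.26 for single libraries, 0.14 and 0.072 in the 12 libraries with and without batch, 0.020 with the replicate block). The causes were not tested. Over the named single features and their alternatives, 583 values kept their direction and side of the threshold. Of the rest, 101 no longer passed, 36 newly passed and 9 reversed direction. The counts of called genes are not part of this tally. The shallowest K14Q library held 1409228 pairs, and the part of depth in these results was not tested.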
